A study of Mus musculus with 18 samples.

Results

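The numbered zinc finger genes are mouse genes named Zfp followed only by a number, and they are described here across 6 groups of macrophages in which transcription had been blocked. A gene counted as a member when 1 row of the array table carried its symbol alone, the brightest such row was used, and its highest group mean of log2 intensity reached the median row mean of the table, a log2 of 2.97. Zfp36, the gene deleted in the study, was left out. Of 311 numbered genes, 145 reached the limit and were tested among 10484 genes in all, and 166 were below it. Just inside the limit were Zfp111 (2.98), Zfp13 (2.98) and Zfp276 (2.99), and just outside were Zfp523 (2.97), Zfp317 (2.95) and Zfp629 (2.95), each given as its highest group mean of log2 intensity. A member below the limit was not shown to be silent.

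Bone marrow cells of C57Bl/6 mice, grown into macrophages with M-CSF, were wild type (WT) or TTP-/- (KO), which lack tristetraprolin, an mRNA-destabilising protein encoded by Zfp36. All groups had been stimulated with LPS, a bacterial cell wall component, for 3 h. The medium was then exchanged for one with actinomycin D, which blocks transcription, and SB203580, which inhibits the kinase p38, and RNA was taken after 0, 45 or 90 min. Each combination of genotype and time had 3 arrays of the Affymetrix Mouse Gene ST type, 18 in all. The question was which mRNAs decay more slowly without tristetraprolin, judged against the spread of the 3 arrays of a group. No label ties a replicate to its own animal or culture, and that spread may therefore be only technical.

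Proteins of this family carry C2H2 zinc fingers, short folds held by a zinc ion of which an array can read a DNA sequence. In many of them the fingers are joined to a KRAB domain, which recruits the corepressor TRIM28 and histone-methylating enzymes and silences retroelements and other targets. Others activate transcription, bind RNA or act in ribosome assembly and at the mitotic spindle. After a transcription block no new mRNA is made, so the level that remains reflects decay.

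Promoters of 3 members are shown to give the sequence context of members that fell to different final levels and of one that did not pass. Zfp263 encodes a DNA-binding factor with SCAN and KRAB domains, Zfp281 a regulator of pluripotency and differentiation genes, and Zfp207 the spindle protein BuGZ. The windows are the 250 bases before the start in RefSeq (GRCm38.p6, plus strand), at chr16:3743849-3744098, chr1:136624651-136624900 and chr11:80383029-80383278. Capitals mark, on either strand, the GC box GGGCGG, the CCAAT box CCAAT and the ETS core CCGGAA.
Zfp263: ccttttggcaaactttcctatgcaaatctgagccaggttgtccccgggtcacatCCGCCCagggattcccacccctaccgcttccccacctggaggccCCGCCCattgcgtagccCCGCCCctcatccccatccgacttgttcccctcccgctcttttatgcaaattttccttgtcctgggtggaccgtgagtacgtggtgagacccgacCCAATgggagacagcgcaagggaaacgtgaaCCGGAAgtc
Zfp281: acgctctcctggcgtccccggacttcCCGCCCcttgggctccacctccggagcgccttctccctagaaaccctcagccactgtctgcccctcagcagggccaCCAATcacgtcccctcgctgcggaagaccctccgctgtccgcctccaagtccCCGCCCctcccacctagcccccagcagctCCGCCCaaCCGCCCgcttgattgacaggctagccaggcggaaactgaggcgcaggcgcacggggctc
Zfp207: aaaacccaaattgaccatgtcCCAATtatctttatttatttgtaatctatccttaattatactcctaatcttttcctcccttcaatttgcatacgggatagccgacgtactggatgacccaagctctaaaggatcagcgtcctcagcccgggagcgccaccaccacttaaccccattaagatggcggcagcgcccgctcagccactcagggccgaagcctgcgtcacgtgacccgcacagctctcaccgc

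The Zfp263 window held 3 GC boxes, 1 CCAAT box and 1 ETS core, and the Zfp281 window held 4 GC boxes and 1 CCAAT box. The Zfp207 window held 1 CCAAT box and neither of the other motifs. Their GC contents were 59.6%, 69.6% and 51.2%. A window was available for 116 of the 145 members, and 54.3% of these held a GC box, against 33.0% of 27025 RefSeq promoters of the same length. A CCAAT box was present in 46.6% of member windows against 34.5%, an ETS core in 25.9% against 12.3%, and the TATA box TATAAA in 5.17% against 13.0%. The AP-1 site TGACTCA was present in 4.31% against 4.43%. Median GC content was 56.6% for members and 52% for all promoters. Members had passed a signal limit and the RefSeq promoters had not been filtered, so these differences are not shown to belong to the family. Among members, a GC box was held by 50% of the 14 windows of genes that fell at 90 min and by 54.9% of the 102 windows of members that did not pass, and a CCAAT box by 64.3% and 44.1%. These matches describe letters in the window and are not shown to be bound.

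The arrays differed among themselves in a way that bears on the members. Replicates correlated within groups with r of 0.942 to 0.993. The numbers in the sample titles fall into lower ones, replicate 3 of each group (series A), and higher ones, replicates 1 and 2 (series B), and the first principal component separated them (scores of 12.03 to 30.9 against -23.1 to -5.81). All 8 macrophage markers were above the limit, with group means of log2 intensity of 9.36 to 9.65 and none passing at 90 min. Of fibroblast markers 4 of 7 reached it (Col1a1, Col1a2, Col3a1 and Pdgfrb), with group means over the list of 2.86 to 3.10 and 1 passing at 90 min, and their part in the results was not tested. Of the markers with a row of their own in other lists, 0 of 4 B cell, 1 of 5 T cell (Cd3e), 1 of 7 neutrophil (S100a8), 2 of 5 dendritic cell (Zbtb46 and Ccr7) and 0 of 2 erythroid markers reached it.

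Zfp36 itself had log2 intensities of 7.95, 7.86 and 7.12 in WT at 0 min and of 4.11, 4.10 and 4.15 at 90 min. In KO it read 6.25, 6.75 and 6.81 at 0 min and 4.58, 5.97 and 4.42 at 90 min. The probes were not placed relative to the deletion, so these values do not check the genotype labels. Zfp36 fell by 3.52 ± 0.32 (SE) in WT and by 1.61 ± 0.32 in KO, with limma adjusted p of 1.14e-05 and 0.0480, and the difference between them was 1.91 ± 0.45 with an adjusted p of 0.762.

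Over 90 min without transcription, 17 of the 145 members fell and 0 rose when both genotypes were averaged (limma, Benjamini-Hochberg adjusted p below 0.05 over all genes tested). This was 11.7% of the members, and 2.21% of all genes tested fell and 0.0572% rose. At an unadjusted p below 0.05, 47 members were lower and 0 higher, against 8.22% and 1.72% of all genes. The change was below 0 for 116 members, or 80%, against 45.2% of all genes, with a median log2 change of -0.22 against 0.02. The members' changes ran from -1.54 to 0.30. In the array data of a bulk culture, fewer cells and less RNA per cell cannot be told apart, and a change is relative to the average signal of the array.

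**Figure D1:**
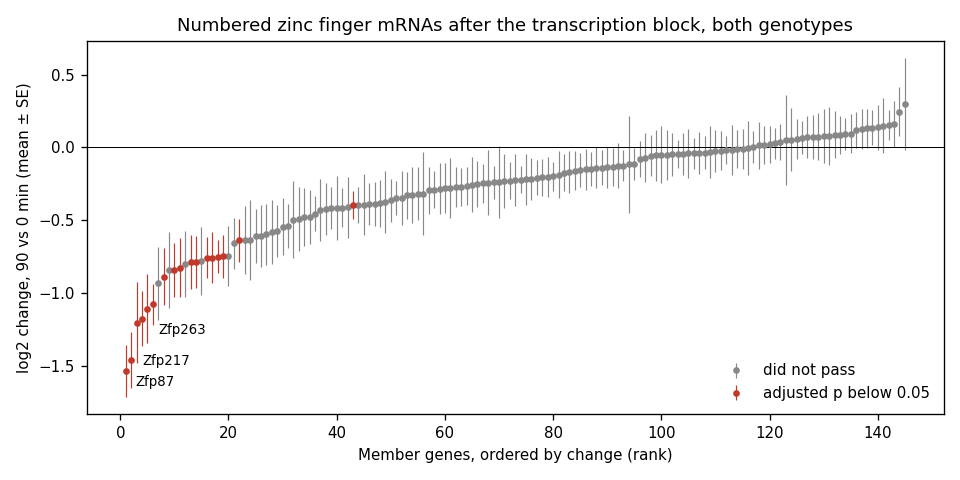
Each point is 1 of the 145 members, ordered by its log2 change from 0 to 90 min averaged over both genotypes (vertical axis), with SE; red points passed at an adjusted p below 0.05. The 17 red points all lie below 0, from -1.54 to -0.40, and no point above 0 passed.

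**Figure D2:**
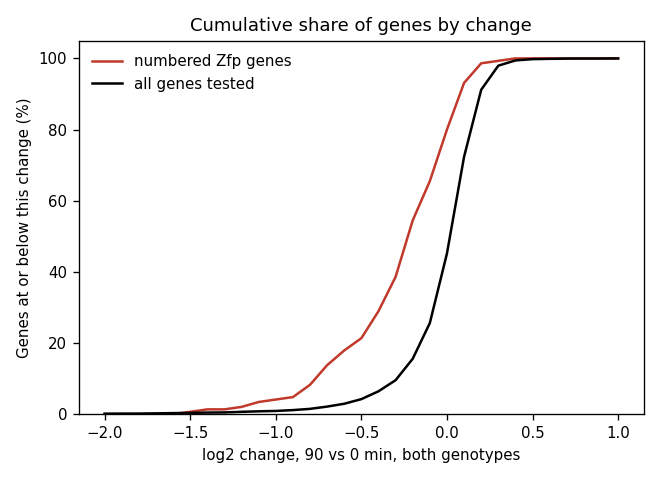
The curves give the percentage of genes (vertical axis) at or below each log2 change from 0 to 90 min (horizontal axis), for the 145 members in red and all 10484 tested genes in black. At a change of -0.5 the red curve is at 21.4% and the black at 4.25%, and at 0 they are at 80% and 45.2%.

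The cumulative curves show that the members' distribution lay to the left of that of all genes. At a log2 change of -1 or lower were 4.14% of members and 0.935% of all genes. The members were dimmer than other genes, with a median log2 intensity of 3.61 against 4.91. Genes whose mean over all arrays was below the limit had passed the filter through their highest group alone and are left out of a split by level. With a mean from 0 to 1 above the limit, 7 of 70 members fell (10%, against 1.77%), from 1 to 2 above it 4 of 34 (11.8%, against 2.66%) and further above it 3 of 19 (15.8%, against 2.30%). With the limit set on the mean over all arrays, 14 of 123 members fell (11.4%, against 2.23%) and 0 rose (against 0.0608%). The 3 members that fell and were removed by this limit were Zfp626, Zfp790 and Zfp160. Their group means reached the limit at 0 min alone, the time against which the fall is measured. Zfp87 also reached it at 0 min alone, but stayed a member by its mean over all arrays.

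The largest fall was that of Zfp87, on chromosome 13 from 67515781 to 67526231 (GRCm38.p6). Its log2 intensities at 0 min were 3.62, 3.66 and 4.66 in WT and 4.51, 4.17 and 3.91 in KO, and at 90 min they were 2.26, 2.56 and 2.23 in WT and 2.69, 2.87 and 2.69 in KO. All 6 arrays at 90 min were below all 6 at 0 min and below the signal limit. Zfp87 fell by 1.54 ± 0.18 (limma adjusted p 9.29e-05), which left 34.4% of the starting signal (95% confidence interval 26.4 to 44.9%).

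Zfp217 encodes a corepressor subunit that works with histone demethylases, and lies on chromosome 2 from 170108643 to 170151677. Its log2 intensities at 0 min were 4.76, 4.79 and 5.27 in WT and 5.19, 5.33 and 6.14 in KO, and at 90 min 3.89, 3.14 and 3.94 in WT and 3.73, 4.32 and 3.70 in KO. The arrays of the 2 times did not overlap, and KO at 0 min replicate 3 was the brightest. The mRNA fell by 1.46 ± 0.19 (limma adjusted p 0.000222), leaving 36.3% (27.5 to 48.0%).

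Zfp263, on chromosome 16 from 3744099 to 3750790, was among the brighter members, and the promoter printed for it ends where the gene starts. Its log2 intensities at 0 min were 7.18, 7.32 and 7.83 in WT and 6.67, 7.05 and 7.34 in KO, and at 90 min 5.76, 6.09 and 6.14 in WT and 5.56, 6.67 and 6.10 in KO. The times were separated by a small margin, since KO at 90 min replicate 2 was just under KO at 0 min replicate 1. Zfp263 fell by 1.18 ± 0.19 (limma adjusted p 0.00159), leaving 44.2% (33.5 to 58.4%) at a level well above the limit.

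Zfp281, on chromosome 1 from 136624901 to 136630391, had log2 intensities at 0 min of 5.06, 4.73 and 6.45 in WT and 5.99, 6.60 and 6.90 in KO. At 90 min they were 4.41, 4.65 and 4.09 in WT and 5.24, 5.66 and 5.01 in KO. The times overlapped across genotypes, because WT at 0 min replicate 2 was below every KO array at 90 min, and within each genotype they did not. Zfp281 fell by 1.11 ± 0.24 (limma adjusted p 0.0161), while the series A arrays alone gave a change of -2.12 and the series B arrays -0.60. Without KO at 0 min replicate 3 or KO at 90 min replicate 3 the adjusted p was 0.0505 and 0.0531.

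Zfp626, on chromosome 7 from 27804731 to 27822923, had log2 intensities at 0 min of 3.30, 3.40 and 3.45 in WT and 3.48, 3.39 and 3.54 in KO. At 90 min they were 2.62, 2.09 and 1.86 in WT and 2.72, 2.61 and 2.18 in KO. The 6 starting values lay close together and all values at 90 min were under the signal limit. Its group means reached that limit at 0 min alone. The fall was 1.08 ± 0.14 (limma adjusted p 0.000215), and 47.3% (38.5 to 58.1%) of the signal was left.

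Zfp654, on chromosome 16 from 64780347 to 64851937, varied widely between replicates. Its log2 intensities at 0 min were 3.48, 4.05 and 5.31 in WT and 3.82, 5.08 and 5.11 in KO, and at 90 min 2.84, 3.88 and 2.89 in WT and 3.29, 3.61 and 3.10 in KO. The times overlapped, with WT at 90 min replicate 2 above WT and KO at 0 min replicate 1. It fell by 1.21 ± 0.28 (limma adjusted p 0.0268), with changes of -2.21 from the series A arrays and -0.70 from those of series B. Leaving out any of 6 arrays (WT at 90 min replicates 1 and 3, KO at 0 min replicates 2 and 3, KO at 90 min replicates 1 and 3) gave an adjusted p of 0.0593 to 0.0885.

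**Figure D3:**
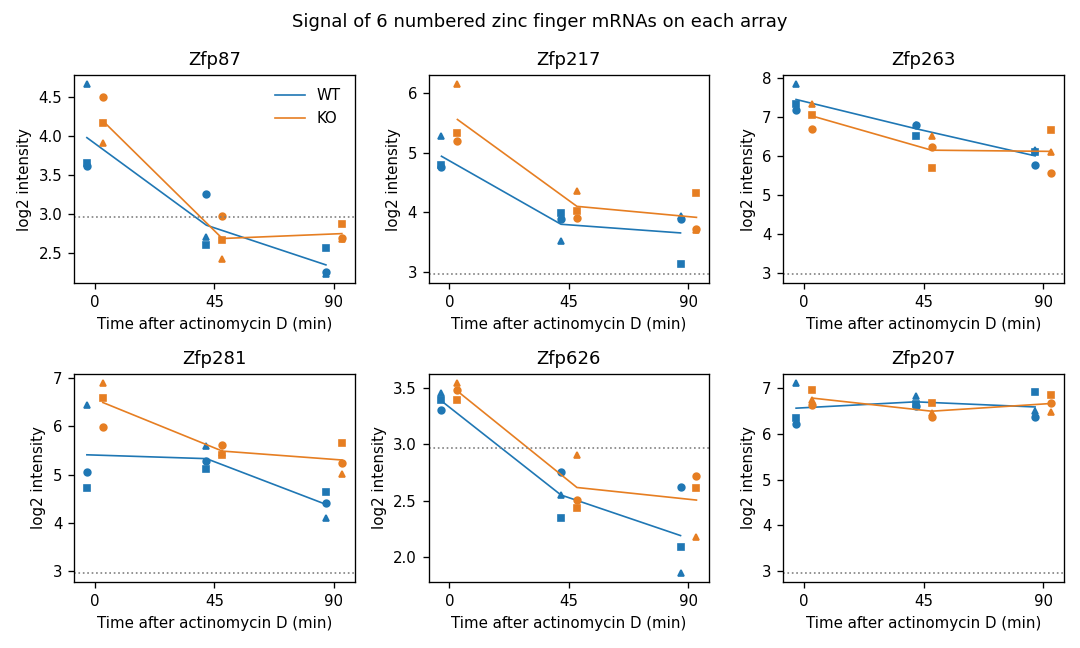
Log2 intensity (vertical axis) of 6 members on each array against minutes after actinomycin D, with WT and KO in separate colours; circles, squares and triangles are replicates 1, 2 and 3, lines join group means and the dotted line is the signal limit of 2.97. Zfp87 and Zfp626 end under the limit, while Zfp263 ends at 5.56 to 6.67 and Zfp207 stays between 6.22 and 7.10.

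Among members listed as regulators of transcription, 16 of 21 were tested and 4 fell, namely Zfp217, Zfp263, Zfp281 and Zfp110. This was 25%, against 11.7% of all members and 2.21% of all genes. The median log2 change over the 16 was -0.26. The role lists were chosen with earlier results known, and whether a list differs from the other members was not tested. Zfp110 encodes a partner of the neurotrophin receptor p75. Its lowest, median and highest log2 intensities were 3.93, 4.35 and 4.95 at 0 min and 3.10, 3.56 and 3.94 at 90 min, so that the times overlapped narrowly. Zfp110 fell by 0.76 ± 0.17 (limma adjusted p 0.0262). Zfp410, an activator of the chromatin remodeller gene Chd4 and named after its values were seen, had values of 4.61 to 4.91 at 0 min and 4.11 to 4.53 at 90 min, with no overlap. It fell by 0.40 ± 0.10 (limma adjusted p 0.0372), the smallest fall that passed. Without KO at 0 min replicate 3 or KO at 90 min replicate 3, 2 of the listed regulators passed. The share of all genes in these 2 settings is not given, so this count is not set against it.

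Among members that act on RNA, ribosomes or the spindle, all 12 listed were tested and 2 fell, with a median of -0.08. That was 16.7%, against 11.7% of all members and 2.21% of all genes. Zfp830, needed for genome integrity in dividing progenitors, had lowest, median and highest log2 intensities of 3.64, 4.25 and 4.39 at 0 min and 3.19, 3.32 and 3.62 at 90 min. These did not overlap, and the fall was 0.76 ± 0.14 (limma adjusted p 0.00530). Zfp622, which acts in the maturation of the large ribosomal subunit, had 4.52, 5.16 and 5.20 at 0 min and 4.09, 4.21 and 4.94 at 90 min, so the times overlapped. Zfp622 fell by 0.64 ± 0.15 (limma adjusted p 0.0273); it did not pass (0.0579 to 0.0927) without WT at 0 min replicate 2, WT at 90 min replicate 1 or 2, KO at 0 min replicate 3 or KO at 90 min replicate 1 or 3. Zfp330, a nucleolar protein, had a change of -0.80 ± 0.23 that did not pass (limma adjusted p 0.0812).

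Zfp207, whose promoter is printed above, was among the 3 brightest members with Zfp706 and Zfp800. Its log2 intensities were 6.22, 6.34 and 7.10 in WT and 6.63, 6.96 and 6.74 in KO at 0 min, and 6.35, 6.90 and 6.49 in WT and 6.67, 6.83 and 6.47 in KO at 90 min. The values of the 2 times overlapped throughout, with a change of -0.05 ± 0.15. The change was 0.15 ± 0.19 for Zfp706 and -0.32 ± 0.28 for Zfp800, and neither passed.

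None of the 3 tested members of 8 listed for imprinting and retroelement silencing passed with limma, and 2 were lower at an unadjusted p below 0.05. Over all 145 members 47 were lower at that p, and over all genes 8.22%. Zfp809, which silences retroviruses in embryonic cells, had a change of -0.61 ± 0.21, Zfp568, a repressor of a placental Igf2 transcript, -0.48 ± 0.20, and Zfp445, which keeps imprints, -0.43 ± 0.21. Of 5 members listed for immune signalling, ubiquitin and SUMO, 3 were tested and 0 passed, with 1 lower at an unadjusted p below 0.05. The SUMO ligase Zfp451 had a change of -0.75 ± 0.21 (limma adjusted p 0.0734), Zfp318 of -0.23 ± 0.18, and Zfp598, which marks collided ribosomes, of -0.04 ± 0.17. Without WT at 0 min replicate 1, Zfp330, Zfp809 and Zfp451 passed, with adjusted p of 0.0410, 0.0392 and 0.0110. The KRAB corepressor and heterochromatin machinery, whose proteins work with many members, had 0 of 17 tested genes passing (1 lower and 0 higher at an unadjusted p below 0.05), with 9 below 0 and a median of -0.07.

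No individual role is given here for the remaining members that fell. They were Zfp790 (-0.89 ± 0.20, limma adjusted p 0.0206), Zfp212 (-0.84 ± 0.18, 0.0186), Zfp954 (-0.83 ± 0.20, 0.0388), Zfp146 (-0.79 ± 0.19, 0.0292), Zfp160 (-0.79 ± 0.18, 0.0257), Zfp869 (-0.75 ± 0.11, 0.000799) and Zfp637 (-0.75 ± 0.15, 0.00840), the last named after its values were seen. Zfp869 read 4.67, 4.84 and 5.14 in WT and 4.65, 4.55 and 4.89 in KO at 0 min, and 3.90 to 4.12 over the 6 arrays at 90 min. Its times did not overlap.

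In 8 members every array at 90 min was below every array at 0 min, and 7 of these were among the 17. Of all genes 1.08% had this pattern. Zfp87 and Zfp626, which are among the 7, reached the signal limit at 0 min alone, so the filter that admitted them favours it. No member had the opposite pattern, against 0.105% of all genes. Of the 17, 5 ended with group means below the signal limit in both genotypes (Zfp87, Zfp626, Zfp790, Zfp954 and Zfp160). All 17 had a change below 0 in series A and in series B, and 15 had the larger one in series A. The 17 were picked by their fall over these same arrays, so the shared sign is no separate support. Over all members the median change was -0.28 in series A and -0.18 in series B, against -0.03 and 0.01 over all genes.

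Of the 17 members, 7 passed whichever single array was left out: Zfp87, Zfp217, Zfp263, Zfp626, Zfp830, Zfp869 and Zfp637. Among these, Zfp87 and Zfp626 reached the signal limit at 0 min alone, and Zfp626 was removed with the limit on the mean over all arrays. The count fell to 8 without WT at 90 min replicate 1, KO at 0 min replicate 3 or KO at 90 min replicate 3, to 9 without KO at 90 min replicate 1 and to 11 without KO at 0 min replicate 2. Shares of all genes are not given for these counts. Beside Zfp281 and Zfp654, the calls of Zfp110, Zfp146, Zfp160, Zfp212, Zfp410, Zfp622, Zfp790 and Zfp954 were lost without at least 1 array, with adjusted p of 0.0503 to 0.116. The arrays beyond those 5 whose omission ended a call were WT at 90 min replicate 3 (5 of the 17), WT at 0 min replicate 2 and KO at 0 min replicate 1 (3 each), WT at 0 min replicate 3, WT at 90 min replicate 2 and WT at 45 min replicate 2 (2 each), and WT at 0 min replicate 1, WT at 45 min replicates 1 and 3 and KO at 45 min replicate 1 (1 each, Zfp410).

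Some of these falls were already measurable at 45 min. At that time 4 of the 145 members were lower and 0 higher than at 0 min, with limma over both genotypes, against 0.486% and 0.00954% of all genes. At an unadjusted p below 0.05, 32 members were lower and 1 higher, against 4.55% and 1.9% of all genes. The 4 that passed were Zfp87 (-1.31 ± 0.18, limma adjusted p 0.00158), Zfp217 (-1.30 ± 0.19, 0.00299), Zfp626 (-0.84 ± 0.14, 0.00760) and Zfp869 (-0.68 ± 0.11, 0.00760). Zfp87 and Zfp626 were above the signal limit at 0 min alone. With the replicate number as a block, which pairs the arrays in this comparison, 7 members were lower and 0 higher, against 1.07% and 0.0763% of all genes. For the 17 members that had fallen at 90 min, the change at 45 min was 67.9% of that at 90 min at the median, from 41.2% for Zfp830 to 90.6% for Zfp869; both changes use the same arrays at 0 min.

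Between 45 and 90 min no member passed with limma in either direction, and 0.00954% of all genes were lower. At an unadjusted p below 0.05, 7 members were lower and 0 higher, against 1.6% and 0.382% of all genes. The lowest changes were those of Zfp281 (-0.57 ± 0.24), Zfp654 (-0.55 ± 0.28) and Zfp319 (-0.47 ± 0.23), and the highest those of Zfp971 (0.39 ± 0.31), Zfp991 (0.29 ± 0.32) and Zfp609 (0.28 ± 0.16). The median of the members was -0.09 and that of all genes 0.00.

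In WT alone 5 members fell over 90 min and 0 rose (limma), against 1.18% and 0.00954% of all genes; 30 were lower and 0 higher at an unadjusted p below 0.05, against 7.15% and 2.27%. The 5 that passed were Zfp87 (-1.63 ± 0.26, limma adjusted p 0.00177), Zfp263 (-1.45 ± 0.27, 0.00833), Zfp217 (-1.28 ± 0.27, 0.0219), Zfp626 (-1.19 ± 0.20, 0.00300) and Zfp869 (-0.85 ± 0.16, 0.0102). Of these, Zfp87 and Zfp626 were above the signal limit at 0 min alone. The count was 3 without WT at 90 min replicate 1, where Zfp263 had an adjusted p of 0.0664 and Zfp869 of 0.0579. The share of all genes without this array is not given here, so that count is not set against it. Zfp217 lost its call without WT at 0 min replicate 2 (0.0550), WT at 0 min replicate 3 (0.0517) or WT at 90 min replicate 2 (0.129).

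In KO alone 2 members fell and 0 rose (limma), against 0.219% and 0% of all genes; 37 were lower and 0 higher at an unadjusted p below 0.05, against 3.79% and 1.57%. They were Zfp217 (-1.64 ± 0.27, limma adjusted p 0.0146) and Zfp87 (-1.44 ± 0.26, 0.0247). Zfp626 and Zfp263 had changes of -0.97 and -0.91, which did not pass. The count was 0 without KO at 0 min replicate 3, KO at 90 min replicate 1 or KO at 90 min replicate 3, was 1 without KO at 0 min replicate 1 or 2, and was 5 without WT at 0 min replicate 3. The shares of all genes without these arrays are not given here.

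**Figure D4:**
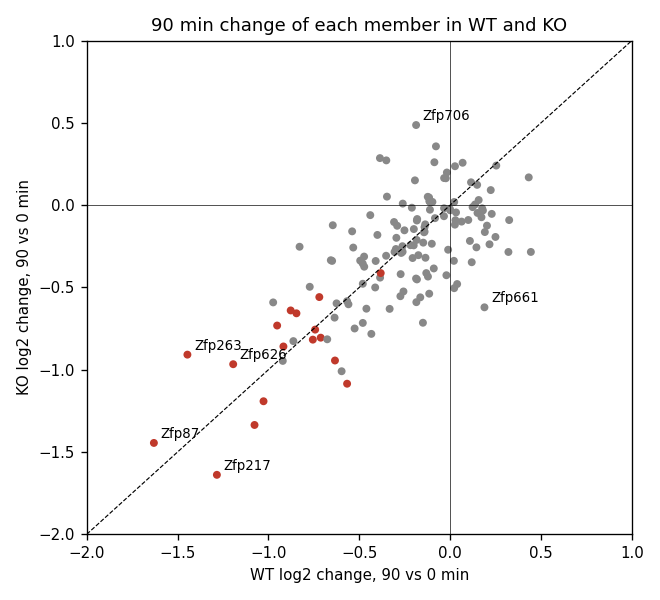
Each point is a member, with its log2 change from 0 to 90 min in WT on the horizontal axis and in KO on the vertical axis; red points are the 17 members that fell in both genotypes averaged, and the dashed line marks equal change. Of the 145 points, 93 are below 0 on both axes, 10 above 0 on both and 42 have opposite signs.

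The question of the series, whether decay differs between the genotypes, was tested as the change in KO minus the change in WT. With limma 0 of 145 members passed in either direction, and 0% of all genes were lower and 0.0191% higher. At an unadjusted p below 0.05, 2 members (1.38%) were lower and 0 higher, against 1% and 1.71% of all genes. These 2, Zfp661 and Zfp707, reached the signal limit in KO alone. Zfp661 did so at 0 min (group mean 3.13) and Zfp707 at 0 and 45 min (3.02 and 3.06). A high KO mean at 0 min both admits a gene and lowers this difference, so these 2 are no support for a difference in decay. The members' differences ran from -0.81 (Zfp661, ± 0.29) to 0.67 (Zfp706, ± 0.38), and their median was -0.03 against 0.04 over all genes. Zfp236 (-0.73 ± 0.40) and Zfp707 (-0.61 ± 0.26) followed at the low end, and Zfp335 (0.67 ± 0.34) and Zfp598 (0.62 ± 0.34) at the high end, all with a limma adjusted p of 0.999.

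The precision of this test was limited by 3 arrays per group. For Zfp87 the difference was 0.19 with a 95% confidence interval of -0.58 to 0.95, and for Zfp217 it was -0.36 with an interval of -1.16 to 0.45. For Zfp263, which passed in WT and not in KO, it was 0.54 with an interval of -0.27 to 1.34. Each interval includes 0, and none shows that the genotypes decay alike. Of the 17 members that had fallen, 8 had a difference above 0 and 9 below 0, with a median of -0.01.

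**Figure D5:**
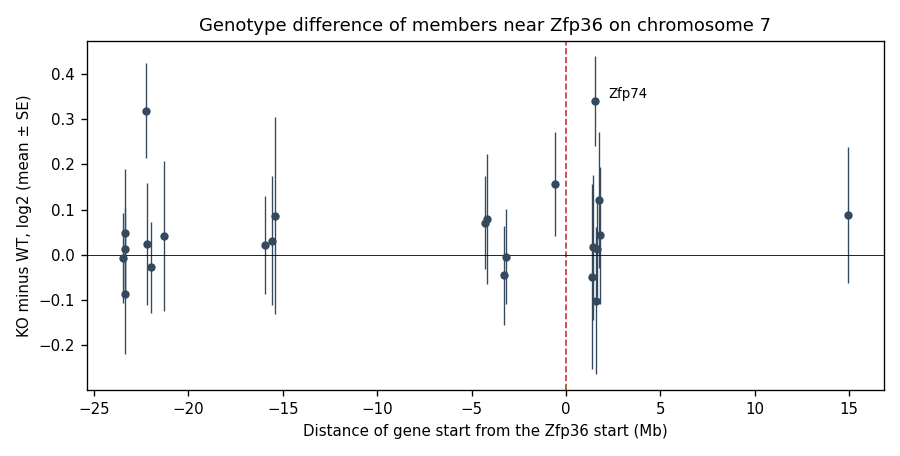
KO minus WT log2 difference averaged over the 3 times (vertical axis, mean and SE) for the 24 members within 25 Mb of Zfp36 on chromosome 7, against the distance of the gene start from that of Zfp36 in Mb. Zfp74, at 1.56 Mb, is at 0.34, and the other members nearest to Zfp36 lie between -0.10 and 0.16. The signal limit was reached by Zfp74 in KO at 0 min alone.

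Levels over all times did not pass between KO and WT for any member with limma (0 lower and 0 higher, against 0.429% and 0.849% of all genes), and 4 (2.76%) were lower and 5 (3.45%) higher at an unadjusted p below 0.05, against 5.26% and 6.35%. With the replicate number as a block, which pairs the arrays in this comparison, 1 member was lower and 3 were higher in KO. These were 0.69% and 2.07% of the members, below the shares of all genes with the block, 1.65% and 2.89%. Zfp281 was higher in KO by 0.72 ± 0.19, with a limma adjusted p of 0.0906, and of 0.0337 with the block. Zfp821 was higher by 0.54 ± 0.16 (0.115, and 0.0265 with the block) and Zfp74 by 0.34 ± 0.10 (0.122, and 0.0495). Zfp74 reached the signal limit in KO at 0 min alone (group mean 3.37), so the filter that admitted it favours this direction. Zfp827, which takes part in chromatin recruitment at telomeres, was lower by 0.46 ± 0.12 (0.0723, and 0.0129).

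The arrays of Zfp827 read 3.09, 3.73 and 3.17 in WT and 2.73, 2.69 and 2.90 in KO at 0 min, and 3.53, 3.39 and 3.00 in WT and 2.90, 3.18 and 2.73 in KO at 90 min. KO was lower in each replicate number at both times. The values were near the signal limit, which only the WT group means reached, so the filter favours this direction too. Zfp821 read 4.15, 3.41 and 4.30 in WT and 4.12, 4.14 and 5.09 in KO at 0 min, and 3.43, 3.74 and 3.91 in WT and 4.22, 4.14 and 4.23 in KO at 90 min. Its genotypes overlapped at 0 min and did not at 90 min. Without WT at 0 min replicate 3, 4 members were higher in KO, among them Zfp281 (adjusted p 0.00218), Zfp821 (0.0370) and Zfp74 (0.0170), which is 2.76% of members against 3.82% of all genes. Without WT replicate 3 at 0, 45 or 90 min Zfp827 was lower, with adjusted p of 0.0319, 0.0415 and 0.0418, and without the array at 0 min 0.887% of all genes were lower.

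Several members are neighbours of Zfp36, which lies on chromosome 7 from 28376784 to 28379228. Of the 145 members 34 are on this chromosome, 12 of them within 10 Mb, and 5 of the 17 that fell are there (Zfp626, Zfp790, Zfp954, Zfp146 and Zfp110). The median KO minus WT difference was 0.02 for the members on chromosome 7 and 0.02 for the others. Among the 8 nearest, Zfp626 (0.16 ± 0.11) starts 0.572 Mb before Zfp36, and Zfp84 (-0.05 ± 0.21), Zfp790 (0.02 ± 0.16), Zfp74, Zfp568 (-0.10 ± 0.16), Zfp14 (0.01 ± 0.11), Zfp382 (0.12 ± 0.15) and Zfp146 (0.04 ± 0.15) start 1.39 to 1.78 Mb after it. Zfp74 read 2.80, 2.77 and 3.33 in WT and 3.23, 3.23 and 3.65 in KO at 0 min, and 2.64, 2.54 and 2.48 in WT and 2.66, 3.12 and 2.83 in KO at 90 min, so the genotypes overlapped at 0 min and were separated narrowly at 90 min.

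Of 27 numbered Zbtb genes, whose proteins join a BTB domain to the fingers, 5 fell over 90 min in both genotypes (18.5%, limma, against 2.21% of all genes), 22 changes were below 0 and the median was -0.22. They included Zbtb5 (-1.04 ± 0.23) and Zbtb43 (-0.76 ± 0.17). Of 11 numbered Zkscan and Zscan genes, whose proteins carry a SCAN domain, 2 fell (18.2%), namely Zkscan1 (-0.76 ± 0.14) and Zscan21 (-0.54 ± 0.13). All 11 changes were below 0 and the median was -0.32. With the limit on the mean over all arrays, 5 of 23 Zbtb genes fell, against 2.23% of all genes, with a median of -0.14. The Zkscan and Zscan count and median were unchanged. Without a signal filter the medians were -0.14 over 35 Zbtb genes and -0.09 over 22 Zkscan and Zscan genes. The Zbtb count was 2 without KO at 90 min replicate 1 or 3, and 3 without WT at 90 min replicate 1 or 3 or KO at 0 min replicate 2 or 3. For these omissions the shares of all genes are not given, so the counts are not set against them. Zscan21 did not pass when 1 array was left out among WT at 0 min replicates 2 and 3, WT at 90 min replicates 1 and 3, KO at 0 min replicate 3 and KO at 90 min replicates 1 and 3, with adjusted p of 0.0524 to 0.106.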

How the data were processed

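The authors normalised the arrays with RMA in Affymetrix Expression Console, per the submitters' processing notes, and deposited linear intensities, a scale judged from their range (array medians 7.41 to 8.19). RMA gives all arrays a shared signal distribution, so a general loss of RNA is not visible. Values were put on the log2 scale without an offset. A single gene symbol was carried by 21039 of the 25138 rows, and the brightest row per symbol left 19454 genes. One limma model (version 3.58.1, R 4.3.3) of the 6 groups used all 18 arrays, with Benjamini-Hochberg adjustment over the 10484 tested genes at 0.05. Errors are SE of the model with n = 3 arrays per group. The procedure was checked on simulated data with independent noise and no difference between series A and B. That check does not cover the difference between the series in the real arrays.

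Members and gene lists were chosen with earlier results of these data known. Named genes were up to 12 members with the largest passing change at 90 min and up to 8 in each other comparison and direction, or the 3 most extreme where none passed. To these were added up to 4 per list, the 8 nearest to Zfp36, the 3 brightest and those at the limit.

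Replicate numbers were taken to pair the arrays where every correlation of same-numbered deviations exceeded 0.1. This held at 45 min (0.319 to 0.673), for KO at 90 min (0.409 to 0.690) and for KO against WT (0.155 to 0.648). It did not hold for both genotypes or WT at 90 min or the decay difference (lowest -0.287), or between 45 and 90 min (lowest -0.021). Alternatives covered filters, an offset, centring, blocks, array weights and omission of each array. Protein features were not analysed here.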

Additional observations from a re-analysis of the deposited data

How the results depend on the processing

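Counts of members and named genes were computed again in up to 15 other settings, fewer where a filter removed the gene, and with each of the 18 arrays left out. For results past the threshold, 124 of 1142 recomputed values no longer passed. The 1142 include values of Zfp36 and of named Zbtb, Zkscan and Zscan genes. Of these values 0 changed sign. In some settings the sign could not change, since the log2 value stays as it was. Examples are no signal filter, a block, and omission of a 45 min array for a change from 0 to 90 min. Shares of all genes in the same setting stand in brackets. With array weights, whose iteration stopped before it converged, the members that fell at 90 min were 41 in both genotypes (7.31%), with 1 higher (3.13%), 39 in WT (12.2%), with 7 higher (10.9%), and 11 in KO (0.982%). The weights gave 21 lower (3.30%) and 2 higher (1.77%) at 45 min, 4 lower decay differences (1.01%), and 3 lower (5.77%) and 19 higher (12.7%) in KO against WT. With the series as a block 28 fell in both genotypes (4.29%), 9 in WT (2.77%) and 8 at 45 min (1.12%), and 1 was lower (1.63%) and 3 higher (3.05%) in KO against WT. In series B alone WT had 14 lower (5.75%) and 1 higher (7.22%), and KO against WT had 1 lower (0.916%) and 3 higher (4.69%). Centring on ribosomal protein genes gave 3 in WT (0.639%) and 5 higher in KO against WT (6.91%), where the median of all genes moved by 0.18. The same centring moved that median by 0.14 in WT and by -0.18 in the decay difference, and left 99 members below 0 at 90 min in both genotypes. The members' median there was -0.32 to -0.13 over all settings. An offset of 8 before log2 gave 1 in KO (0.162%).

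With the replicate number as a block, 26 members fell at 90 min in both genotypes (4.12%), 11 in WT (2.70%) and 7 at 45 min (1.07%), and 1 was lower (1.65%) and 3 higher (2.89%) in KO against WT. The block changed the count of members lower in KO at 90 min from 2 to 3 and left the others at 0. Leaving out 1 array gave 8 to 24 members for both genotypes at 90 min, 3 to 7 for WT, 0 to 5 for KO, 4 to 6 at 45 min, and 0 to 1 lower and 0 to 4 higher in KO against WT. The share of all genes moves with the array left out as well. For genes higher in KO against WT it was 0.849% with all arrays and 3.82% without WT at 0 min replicate 3. It is not given for these ranges or for the KO count with the block, so they are not set against all genes. Without a signal filter 17 of 311 members fell, a smaller share of members than the 17 of 145 with it, and 16 were shared between the 2. The share of all genes without the filter is not given here, so this count is not set against it. The signal limit over named genes, added after the data were seen, gave 17. Zfp410 kept its call in 16 of 33 settings. The file gives no measured background, so how far low signals understate a loss was not tested, and 3 arrays per group limit the precision of the decay difference.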
